A study of Mus musculus with 26 samples.

Results

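Fibroblast growth factors, their receptors and the genes that feed back on ERK signaling were followed through the RNA-seq counts of mouse embryonic stem cells (ESCs) and the neural progenitor cells (NPCs) made from them. The genes were taken by symbol: every Fgf ligand, Fgfr1 to Fgfr4 and Fgfrl1, and the Spry, Spred, Dusp4, Dusp5, Dusp6, Etv4 and Etv5 genes. Of 55291 gene symbols counted, 38 matched. No expression value entered the match, though the family was chosen with earlier results of these data known. After edgeR's filter on low counts, 29 of them were tested among 16641 genes of the CTCF rescue lines and 26 among 13268 genes of the RNA truncation lines, with 25 tested in both.

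10 groups of E14 mouse ESCs and their NPC derivatives were sequenced. In the CTCF rescue lines both copies of endogenous CTCF carry mAID-eGFP, a tag that leads to degradation, OsTIR1 is carried at Rosa26 on a single allele, a mCherry reporter marks Hb9, and a doxycycline-inducible Flag-Halo CTCF, either WT or lacking zinc finger 1 (ΔZF1), sits at Tigre. Before collection all of them received 1 µM 5-Ph-IAA together with 1 µg/ml doxycycline over 24 h. The WT groups thus match the ΔZF1 groups in degron, drugs and the site of the transgene, but not in the CTCF that it encodes. The stem cells are named ESC-WT and ESC-ΔZF1, the progenitors NPC-WT and NPC-ΔZF1, and each group had 2 libraries. In the RNA truncation lines an eGFP cassette with an SV40 polyadenylation signal was placed on both alleles after the first coding exon of Podxl (Podxl pA) or Grb10 (Grb10 pA), and unedited E14 cells were the control, with 3 libraries for each line as ESCs and as NPCs and without the degron drugs. Each variant was carried by a clonal line, so that variant and clone cannot be told apart, and the labels do not say that libraries of a group came from separate cultures, so that p-values measure the spread between these libraries, which may be technical. ESCs were grown with LIF, 3 µM CHIR99021, which inhibits GSK3, and 1 µM PD0325901, an inhibitor of MEK, the kinase that activates ERK. NPCs were made over 2 days on laminin in N2B27 medium, whose description names no inhibitor. Whether the 24 h of drugs fell within these days or followed them in the rescue lines is not plain from the labels, and the study's text places the drugs after differentiation, so that rescue and E14 NPCs may have been collected at different times after the start of differentiation. Since the inhibitors were named for ESCs alone, cell type and MEK inhibition cannot be told apart in any comparison of ESCs with NPCs.

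FGF ligands bind receptor tyrosine kinases together with heparan sulphate, and the receptors signal through Ras, Raf, MEK and ERK. In mouse ESCs, Fgf4 acting through Fgfr1 and Fgfr2 drives ERK activity that favours exit from the naive state, and in the early neural plate Fgf8, Fgf15 and Fgf17 are patterned ligands. ERK activity induces its own brakes. Sprouty (Spry) and Spred proteins act on the Ras to Raf step, Dusp4, Dusp5 and Dusp6 are phosphatases that remove phosphate from ERK, and Etv4 and Etv5 are ETS transcription factors induced downstream of FGF receptors. The transcripts of these feedback genes are widely used as a readout of FGF-ERK activity, but no ERK phosphorylation was measured in these data.

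Libraries of the rescue lines held 6425179 to 28730435 counts on genes, and those of the truncation lines 1907505 to 8845087. The labels of the cells were compared with markers. The summed level of 8 pluripotency genes was 3872 to 5987 CPM over the ESC libraries and 572 to 877 CPM over the NPC libraries, where CPM is the count scaled to the size of the library after TMM normalization. Sox1, the defining marker of early neural progenitors, reached 73.9 to 83.5 CPM in E14 NPCs, 48.7 to 52.2 in Podxl pA NPCs, 22.0 to 30.3 in Grb10 pA NPCs, 39.1 to 40.4 in NPC-ΔZF1 and 16.8 to 22.0 in NPC-WT. The later progenitor markers Hes5 and Fabp7 stood at no more than 0.512 CPM in any NPC library. Of the 10 listed neural progenitor markers, 6 were tested in E14 cells. By the rule given below, 4 were higher in NPCs and 1, Msi1, was lower (log2 fold change -1.05). The summed level of the list was 137 to 178 CPM in E14 ESCs and 183 to 203 in E14 NPCs. In Grb10 pA cells it was 132 to 157 CPM in ESCs and 123 to 139 in NPCs. Podxl lay at 20.8 to 24.2 CPM in Podxl pA NPCs and at 231 to 258 CPM in E14 NPCs, and Grb10 at 52.0 to 59.2 CPM in Grb10 pA NPCs and at 766 to 811 CPM in E14 NPCs. Counts on Ctcf include the transgene and cannot check the rescue lines. Ctcf lay at 561 to 576 CPM in ESC-WT and 830 to 859 in ESC-ΔZF1. In NPC-WT it lay at 448 to 474 CPM and in NPC-ΔZF1 at 784 to 797. The study's text describes similar amounts of tagged rescue protein by Western blot. Whether this RNA difference had a part in the comparisons of ΔZF1 with WT was not tested. The replicates of NPC-WT differed most from each other, with a chi-square of 63.1 per degree of freedom over genes, where the other pairs of replicates had 1.69 to 27.6. The comparison of NPC-ΔZF1 with NPC-WT was therefore also made without each NPC-WT library.

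In E14 ESCs the most abundant ligand per length of RNA was Fgf4, at 38 ± 3.19 CPM per kb (SD, n = 3). The other ligands tested in the truncation lines lay between 0 for Fgf5 and 4.41 CPM per kb for Fgf21, a ligand better known as a metabolic hormone. Fgfr1 led the receptors at 15.3 ± 0.333 CPM per kb, above Fgfrl1, the receptor-like member without a kinase domain, at 8.12 ± 0.971. Fgfr4, Fgfr3 and Fgfr2 followed at 1.25, 0.35 and 0.148 CPM per kb. Of the feedback genes, Etv5 and Etv4 had 78.1 ± 3.74 and 58.3 ± 7.72 CPM per kb and Spry2 had 30.3 ± 0.794, while Dusp4 had 1.38 ± 0.527 and Dusp6 7.03 ± 0.533. Etv4 and Etv5 were thus at high levels in cells kept in MEK inhibitor, while the ERK phosphatases were low.

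On differentiation of E14 cells, the ERK phosphatases Dusp4 and Dusp6 and the receptor Fgfr2 rose steeply, Fgf5 appeared and Fgf4 fell. A gene was called where edgeR's quasi-likelihood test gave a p of 0.05 or less after Benjamini-Hochberg adjustment and the log2 fold change was 0.5 or more in size. By this rule 15 of the 26 members tested were higher in E14 NPCs and 3 were lower, against 16.5% higher and 16.3% lower among all genes tested. The median log2 fold change was 0.62 over the members and -0.01 over all genes. Fgf5 lies above the first value even at its bound below, so that its exact fold change cannot alter that median.

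The clearest rise among ligands was that of Fgf5, a marker of the formative epiblast. It had no count in any of the 3 E14 ESC libraries and 9.67, 10.2 and 11.8 CPM in the NPC libraries. Measured against 3 counts over the ESC group, which is what a count of 0 allows, Fgf5 was at least 45.4-fold higher in E14 NPCs, a bound that covers counting error only. The patterning ligand Fgf17 had 1.3, 3.75 and 1.93 CPM in ESCs and 12.6, 13.2 and 17.8 in NPCs, a log2 fold change of 2.51 (SE 0.30, adjusted p = 1.35e-07). Fgf8, which organizes the midbrain and forebrain boundary regions, went from 0.869, 1.19 and 0.387 to 4.19, 5.94 and 5.04 CPM, a log2 fold change of 2.48 (SE 0.36, adjusted p = 2.13e-06). Fgf15, a ligand of the early neural tube, went from 0.869, 1.19 and 0.774 to 4.51, 4.11 and 4.03 CPM, a log2 fold change of 2.05 (SE 0.42, adjusted p = 0.000243). In these ligands every NPC library lay above every ESC library. Fgf4, the ligand of naive ESCs, went the other way, from 125, 109.7 and 129 CPM to 49.7, 47.8 and 54.7, with a log2 fold change of -1.26 (SE 0.10, adjusted p = 9.13e-11). It remained the most abundant ligand per length in E14 NPCs, at 15.9 ± 1.12 CPM per kb (SD, n = 3), ahead of Fgf17 at 8.61 ± 1.68. Fgf11, an intracellular FGF-like protein that does not act through the receptors, fell from 8.91, 9.04 and 6.19 to 2.58, 1.07 and 1.68 CPM, a log2 fold change of -2.35 (SE 0.32, adjusted p = 1.03e-06).

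Among receptors, Fgfr2 had 1.09, 1.19 and 2.32 CPM in E14 ESCs and 62.9, 65.5 and 62.8 in NPCs, a log2 fold change of 5.50 (SE 0.22, adjusted p = 4.78e-17). Fgfr3, which marks neural progenitors, rose from 1.52, 2.9 and 3.09 to 9.99, 9.59 and 13.8 CPM, a log2 fold change of 2.13 (SE 0.30, adjusted p = 1.24e-06). Both changes were well beyond the spread of the libraries. Of the phosphatases, Dusp4 went from 5.43, 3.24 and 2.71 to 106, 108 and 102 CPM, a log2 fold change of 4.75 (SE 0.16, adjusted p = 1.1e-18), and Dusp6, the cytoplasmic ERK phosphatase, from 23.2, 22.7 and 20.1 to 217, 216 and 213 CPM, a log2 fold change of 3.27 (SE 0.09, adjusted p = 1.5e-20). Spred3 was the tenth largest change, from 5.21, 2.22 and 1.16 to 5.8, 10.0 and 13.1 CPM, with a log2 fold change of 1.66 (SE 0.34, adjusted p = 0.000238). The other members called higher were Fgf13 (1.45), Spred1 (1.21), Spry4 (1.04), Dusp5 (0.65), Fgfr1 (0.58) and Spry2 (0.58), values that are log2 fold changes. Etv4 was lower at -0.63, and Etv5 had an adjusted p of 0.00363 with a log2 fold change of -0.27, short of the fold limit.

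Across the 5 lines, 7 of the 25 members tested in all of them were called higher in NPCs in every line: Fgf5, Fgf13, Fgfr2, Fgfr3, Dusp4, Dusp5 and Dusp6. Fgf4, Fgf11 and Etv4 were lower in every line, and Fgfrl1 was called in none. The 5 comparisons share no library. The share of all genes called the same way in every line was not counted, so that these counts have no background beside them. Podxl pA cells gave 15 members higher and 3 lower, beside 17.1% and 14.7% of all genes, and Grb10 pA cells gave 14 higher and 4 lower, beside 17.2% and 17.4%. In ΔZF1 cells 14 were higher and 7 lower, beside 20.4% and 16.9%. In the WT rescue line the balance differed, with 8 members higher and 13 lower, beside 22.0% and 19.9% of all genes, and the median log2 fold change of its 29 members was -0.56, against 0.53 in ΔZF1 cells.

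By line, the members called on differentiation of ΔZF1 cells were, higher, Fgfr2 (3.66), Fgfr3 (3.41), Dusp4 (3.33), Fgf8 (2.51), Dusp5 (2.20), Fgf13 (1.88), Dusp6 (1.79), Fgf3 (1.16), Fgfr4 (1.13), Spred1 (0.87), Fgf10 (0.70), Fgfr1 (0.69) and Spred3 (0.54), and, lower, Fgf4 (-4.22), Fgf2 (-2.30), Etv5 (-1.93), Etv4 (-1.92), Fgf11 (-1.77), Spry2 (-1.08) and Fgf17 (-1.07), as log2 fold changes. Fgf5 was also called higher there, with 0 and 4 counts in the ESC-ΔZF1 libraries and 255 and 245 in those of NPC-ΔZF1, and its fitted log2 fold change of 5.93 ran from 5.01 without replicate 1 of ESC-ΔZF1 to 10.34 without replicate 2. The calls of Spred3 and Fgf10 in that line were lost without several single libraries, and those of Fgf3 and Fgfr4 without replicate 2 of ESC-ΔZF1. In Podxl pA cells Fgfr2 (4.91), Dusp4 (4.83), Dusp6 (3.19), Fgf17 (2.21), Fgfr3 (2.10), Spred3 (1.52), Fgf15 (1.41), Fgf13 (1.26), Spry4 (1.25), Dusp5 (1.07), Spred1 (0.95), Fgf10 (0.69) and Spry1 (0.53) were higher and Fgf11 (-2.60), Fgf4 (-1.14) and Etv4 (-0.60) lower, and Fgf5 was at least 46.6-fold higher. Fgf8 had 1 count over the Podxl pA ESC libraries and 46 over the NPC libraries, a 38.3-fold ratio with a 95% counting interval from 6.54 to 1546. In Grb10 pA cells Fgfr2 (4.71), Dusp4 (4.28), Dusp6 (3.19), Fgf8 (2.70), Fgf17 (1.92), Fgf13 (1.63), Fgfr3 (1.51), Spry4 (1.36), Dusp5 (1.00), Fgf21 (0.85), Spry1 (0.72), Spred1 (0.63) and Fgfr1 (0.50) were higher and Fgf3 (-2.06), Fgf11 (-1.82), Fgf4 (-0.87) and Etv4 (-0.65) lower, and Fgf5 had 2 counts against 196, a 61.4-fold ratio with an interval from 16.8 to 510. Fgfr2 and Dusp4 had the largest fitted rises in both truncation lines, apart from Fgf5 and, in Podxl pA cells, Fgf8. The calls of Fgf10 and Spry1 in Podxl pA cells and of Fgfr1 and Fgf21 in Grb10 pA cells were each lost without several single libraries.

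**Figure D1:**
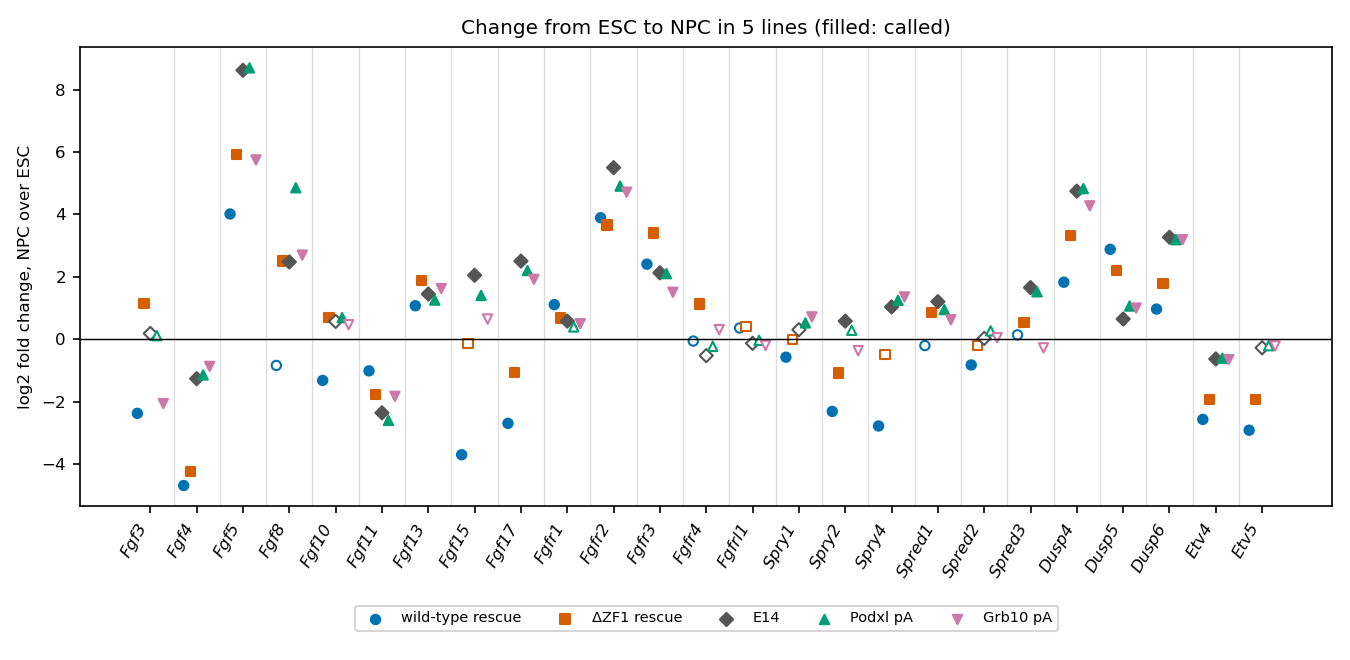
Log2 fold change from ESC to NPC (y axis) of the 25 members tested in all 5 lines (x axis), with filled symbols for called changes and open symbols for the others. Dusp4, Dusp6, Fgfr2 and Fgfr3 lie above 0 in every line, while Fgf15, Fgf17, Spry2 and Spry4 of the WT rescue line (circles) lie below 0 where E14 (diamonds) lies above; the fitted values of Fgf5 in E14 and Podxl pA rest on ESC libraries without a count.

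In the WT rescue line 4 members moved against their direction in E14 cells, with both changes called. Fgf15 had 3.81 and 3.13 CPM in ESC-WT and 0.254 and 0.257 in NPC-WT, which is a log2 fold change of -3.70 (SE 0.35, adjusted p = 2.08e-05), where E14 cells gave 2.05. Fgf17 had 13.7 and 13.2 against 1.69 and 2.66 CPM, a log2 fold change of -2.69 (SE 0.23, adjusted p = 1.2e-05). Both patterning ligands were thus lower in NPC-WT than in ESC-WT. Of the Sprouty genes, Spry4 had 75.7 and 83.8 CPM in ESC-WT and 9.52 and 14.3 in NPC-WT, for a log2 fold change of -2.78 (SE 0.18, adjusted p = 1.79e-06), and Spry2 had 111 and 103 against 19 and 24.6 CPM, a log2 fold change of -2.31 (SE 0.14, adjusted p = 1.32e-06). In each of these genes both ESC-WT libraries were above both NPC-WT libraries.

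Large changes in the WT rescue line were those of Fgf4, from 205 and 214 to 5.5 and 11.7 CPM with a log2 fold change of -4.68 (SE 0.27, adjusted p = 1.16e-06), and of Fgfr2, from 12.4 and 8.4 to 147 and 151 CPM with 3.90 (SE 0.18, adjusted p = 5.25e-07). Fgf5 had 0.153 and 0.0651 CPM in ESC-WT and 1.57 and 1.63 in NPC-WT, or 2 counts against 56, a 17.4-fold ratio with a 95% counting interval from 4.59 to 147. The ETS factors fell together, Etv5 from 345 and 366 to 41 and 54.1 CPM, with a log2 fold change of -2.91 (SE 0.14, adjusted p = 6.16e-07), and Etv4 from 155 and 173 to 23.8 and 32.2 CPM, with -2.56 (SE 0.15, adjusted p = 1.2e-06). Dusp5, an ERK phosphatase of the nucleus, rose from 9.61 and 8.66 to 61.6 and 72.2 CPM, with 2.88 (SE 0.15, adjusted p = 7.3e-07), so that the phosphatases did not follow the ETS and Sprouty genes. Fgf1, a ligand for all the receptors, had 0.458 and 2.02 CPM in ESC-WT and 0.169 and 0.343 in NPC-WT. Its call as lower (log2 fold change -2.62) rests on replicate 2 of ESC-WT, without which the value was -0.97 with an adjusted p of 0.499. The other members called in this line were Fgfr3 (2.41), Fgf3 (-2.37), Dusp4 (1.83), Fgf10 (-1.32), Fgfr1 (1.11), Fgf13 (1.08), Fgf11 (-1.01), Dusp6 (0.97), Spred2 (-0.82) and Spry1 (-0.57), given as log2 fold changes. The calls of Fgf11 and Spry1 were lost without either ESC-WT library or replicate 1 of NPC-WT.

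The difference between the 2 controls was tested in a joint model of all 26 libraries, a comparison chosen after seeing these values. The change from ESC to NPC was lower in the WT rescue line than in E14 cells for 19 of 28 members tested and higher for 3, beside 17.8% lower and 17.4% higher among 14742 genes. The median difference was -1.92 over the members and -0.02 over all genes. Spry4 differed by -3.83 (SE 0.22, adjusted p = 1.56e-13), Spry2 by -2.90 (SE 0.16, adjusted p = 5.5e-14), Etv5 by -2.65 (SE 0.14, adjusted p = 1.61e-14) and Dusp6 by -2.30 (SE 0.16, adjusted p = 3.77e-12). Dusp5, Fgf11 and Fgfr1 were the 3 that differed upwards, by 2.22, 1.34 and 0.52. The call of Fgfr1 was lost without replicate 1 of ESC-WT, replicate 2 of NPC-WT or replicate 2 of E14 ESCs, and that of Fgf11 without replicate 2 of ESC-WT or of E14 NPCs. Some lists of cell type markers also differed between the 2 lines. On differentiation all 8 surface ectoderm markers rose in the WT rescue line, with a median log2 fold change of 3.88, against 2 of 7 tested in E14 cells, with 0.21. For Krt8, a keratin of simple epithelia, the log2 fold change was 4.89 in the WT rescue line and 0.26, not called, in E14 cells. The 2 that rose in E14 cells were Gata3 and Krt18, and Tfap2a was lower there (-1.13). Gata3 rose to a like extent in both lines, by 4.396 in the WT rescue line and 4.31 in E14 cells. Krt18 rose by 4.965 and 1.736 in the same order. Of 12 extraembryonic endoderm markers 8 rose and 1 fell in the WT rescue line, with a median of 2.04. In E14 cells 10 of 10 rose, with 4.37. All 5 formative epiblast markers rose in both, with medians of 1.47 and 4.72. Pluripotency markers had like medians of -3.11 in the WT rescue line and -2.89 in E14 cells. In the same order, the medians were 1.62 and 1.50 for neural progenitor markers and -0.89 and -0.73 for neuron markers. For mesoderm markers they were 0.29 and 2.49. The part of these cell types in the difference was not tested. The lines differ in the degron, the drugs, the clone, the experiment and possibly the time of collection at once, and these cannot be told apart.

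With ΔZF1 in place of WT CTCF, none of 29 members was called in ESCs, beside 1.29% of all genes higher and 2.33% lower. By edgeR 5 members had an unadjusted p under 0.05, and DESeq2 called 0. Spred2 had an adjusted p of 0.0424 but lay short of the fold limit, at -0.47. The largest differences were those of Fgf2, at 0.61 and 0.651 CPM in ESC-WT and 1.54 and 1.35 in ESC-ΔZF1 (log2 difference 1.17, adjusted p = 0.189), and of Fgf13, another intracellular FGF-like protein, at 3.66 and 4.3 against 2.2 and 1.69 CPM (-1.06, adjusted p = 0.0614). Over the 11 feedback genes tested, the log2 difference lay between -0.47 for Spred2 and 0.68 for Spred3, with Dusp4 at -0.47 (SE 0.26) and Dusp6 at 0.36 (SE 0.16), and with Spry4, Etv4, Etv5 and Spred1 nearest to 0, from -0.11 to 0.11. With the median of chromosome 11 in the offsets, Etv4 was at 0.35 and was not called.

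In NPCs the picture was different. Relative to NPC-WT, 17 of the 29 members were higher in NPC-ΔZF1 and 1 was lower, beside 7.19% of all genes higher and 10.5% lower. The median log2 fold change was 1.08 over the members and -0.003 over all genes. The members called comprised 7 of 13 ligands, 2 of 5 receptors and 9 of 11 feedback genes. With each library of the 2 groups left out in turn, no called member changed direction. The number called among all genes moved widely between these fits, which leave 1 library in a group. Their counts of members are therefore not read as support.

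**Figure D2:**
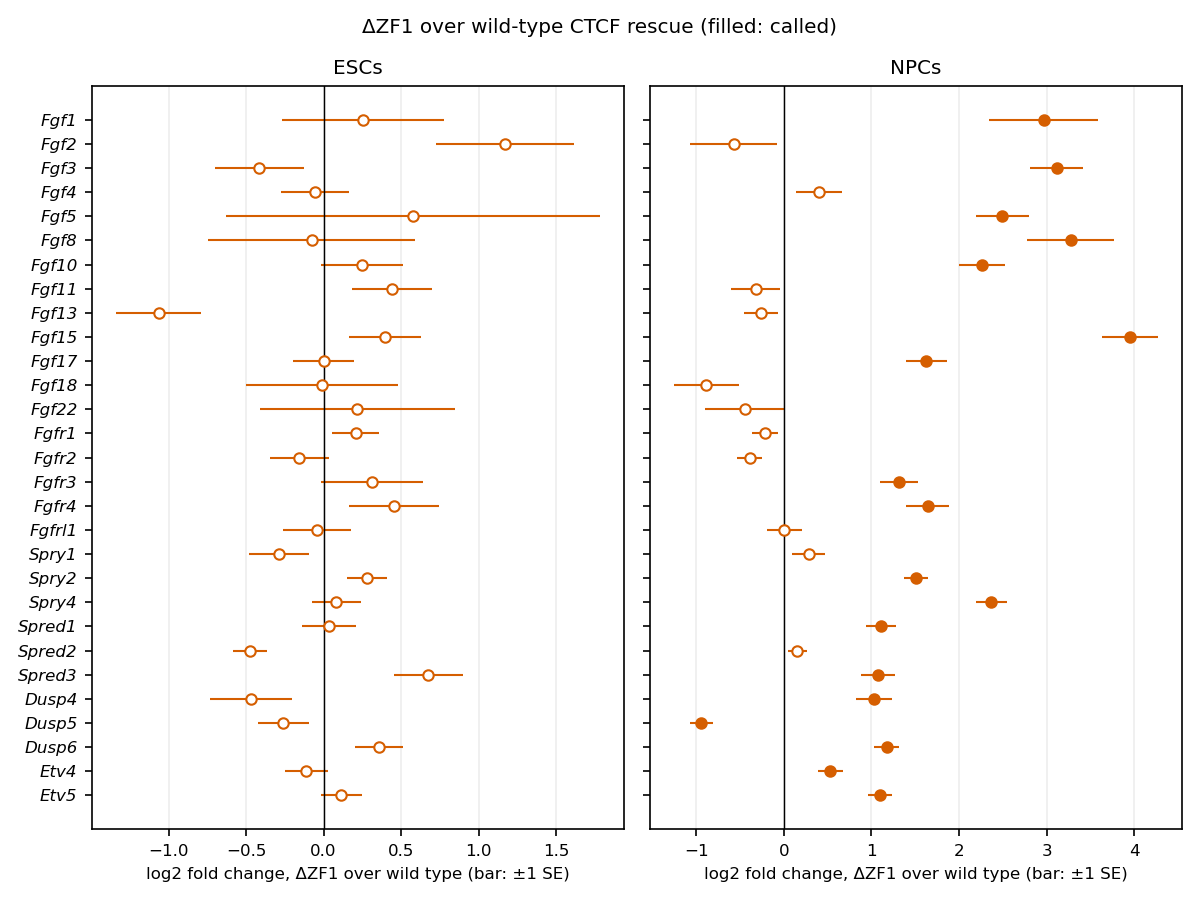
Log2 fold change of ΔZF1 over WT CTCF (x axes, which differ in range, with bars of 1 SE) in ESCs (left) and NPCs (right) for the 29 members tested, with filled points for called members. No member is filled in ESCs, while in NPCs 17 lie to the right of 0 and Dusp5 to the left.

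The ligands showed the steepest rises. Fgf15 had 0.254 and 0.257 CPM in NPC-WT, from 6 and 3 counts, and 4.08 and 4.0 in NPC-ΔZF1, with a log2 fold change of 3.95 (SE 0.32, adjusted p = 9.13e-05). Fgf8, from 6 and 2 counts in NPC-WT, had 0.254 and 0.172 CPM there and 1.86 and 2.61 in NPC-ΔZF1, with a log2 fold change of 3.27 (SE 0.49, adjusted p = 0.00191). Fgf3, a ligand of the hindbrain and otic region, had 0.677 and 1.46 against 8.23 and 8.59 CPM, a log2 fold change of 3.11 (SE 0.31, adjusted p = 0.000221). In these 3 genes the groups did not overlap, and in NPC-WT Fgf15 and Fgf8 were near the limit of detection. Fgf1 had 0.169 and 0.343 against 2.04 and 1.65 CPM (log2 fold change 2.97, SE 0.62, adjusted p = 0.00928), and it missed the threshold without replicate 1 of NPC-ΔZF1, with an adjusted p of 0.0683. The epiblast ligand Fgf5 had 1.57 and 1.63 against 8.97 and 9.0 CPM (log2 fold change 2.49, SE 0.30, adjusted p = 0.000721). Fgf10, best known from limb and lung budding, had 1.69 and 2.14 against 8.48 and 9.47 CPM (log2 fold change 2.26, SE 0.26, adjusted p = 0.000573). Fgf17 had 1.69 and 2.66 against 7.04 and 5.77 CPM (log2 fold change 1.63, SE 0.23, adjusted p = 0.00147). All 7 ligands called are secreted proteins that act through FGF receptors. Fgf4, the most abundant ligand of ESCs, had 5.5 and 11.7 against 9.82 and 11.7 CPM, overlapping between the groups, with a log2 difference of 0.40 (SE 0.26, adjusted p = 0.305). The intracellular Fgf11 and Fgf13 differed by -0.32 and -0.26, and Fgf2, Fgf18 and Fgf22 by -0.57, -0.89 and -0.45, all short of the threshold.

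The receptors divided. Fgfr4 had 2.24 and 3.17 CPM in NPC-WT and 7.85 and 8.56 in NPC-ΔZF1, with a log2 fold change of 1.64 (SE 0.24, adjusted p = 0.0018), and Fgfr3 had 10.7 and 16.8 against 32.3 and 34.7 CPM, with 1.31 (SE 0.21, adjusted p = 0.00282). In neither did the libraries overlap. Fgfr1 and Fgfr2, the receptors with the highest levels per length in NPC-WT, at 26.5 ± 6.3 and 14.4 ± 0.312 CPM per kb (SD, n = 2), had log2 differences of -0.22 (SE 0.15, adjusted p = 0.317) and -0.39 (SE 0.15, adjusted p = 0.0851). Fgfrl1 differed by 0.00 (SE 0.20). The counting did not use strand, and 998 exon bases of Fgfr3 overlap the antisense gene G630022F23Rik, whose reads cannot be told apart from those of Fgfr3.

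Most feedback genes rose with the ligands. Spry4 had 9.52 and 14.3 CPM in NPC-WT and 61.6 and 58.9 in NPC-ΔZF1, with a log2 fold change of 2.37 (SE 0.17, adjusted p = 4.73e-05). Spry2 had 19 and 24.6 against 62.8 and 60.2 CPM, with 1.51 (SE 0.13, adjusted p = 0.000146). Both Sproutys stood in NPC-ΔZF1 above both NPC-WT libraries. Dusp6 had 42.8 and 45.8 against 100.1 and 99.6 CPM (log2 fold change 1.17, SE 0.14, adjusted p = 0.000747), and Etv5 had 41 and 54.1 against 105 and 97.6 CPM (log2 fold change 1.10, SE 0.14, adjusted p = 0.00076). Spred1, an inhibitor of Ras activation, had 99.4 and 65 against 174 and 181 CPM (log2 fold change 1.11, SE 0.17, adjusted p = 0.00229). Spred3 had 3.64 and 4.2 against 7.71 and 8.67 CPM (log2 fold change 1.08, SE 0.19, adjusted p = 0.00444), and its call was lost without replicate 2 of NPC-ΔZF1, with an adjusted p of 0.0628. Dusp4 had 22.6 and 34.7 against 55.7 and 60.2 CPM (log2 fold change 1.03, SE 0.20, adjusted p = 0.00677), and its call was lost without either NPC-ΔZF1 library, with adjusted p-values of 0.0525 and 0.0732. Etv4 had 23.8 and 32.2 against 41.4 and 38.6 CPM (log2 fold change 0.53, SE 0.14, adjusted p = 0.0291), a small rise that was no longer called without replicate 1 of NPC-WT (0.32), without replicate 1 (0.48) or 2 (0.58) of NPC-ΔZF1, or with only these 2 groups in the model (0.52). Dusp5 alone moved down, from 61.6 and 72.2 to 35.7 and 33.9 CPM, a log2 fold change of -0.94 (SE 0.13, adjusted p = 0.00117). Spry1 and Spred2 were not called, with log2 differences of 0.28 (SE 0.19) and 0.15 (SE 0.11).

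**Figure D3:**
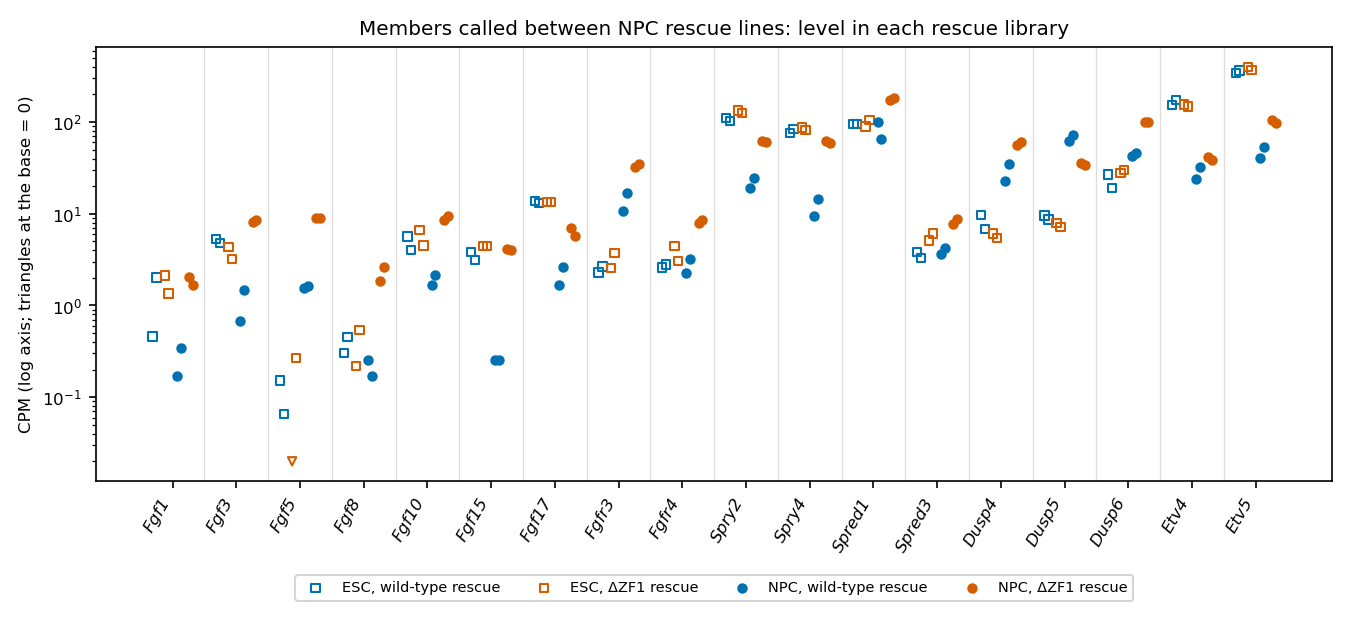
CPM on a log axis of the 18 members called between the NPC rescue lines, with a symbol for each of the 8 rescue libraries (squares ESCs, circles NPCs, blue WT, orange ΔZF1, a triangle at the base for a count of 0). The orange circles lie above the blue circles in each member except Dusp5, while no member was called between the orange and blue squares.

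Whether the effect of ΔZF1 differed between the cell types was tested as an interaction. For 8 of the 29 members it was higher in NPCs than in ESCs and for 0 lower, beside 1.59% higher and 1.11% lower among all genes. These were Fgf15 (3.55, SE 0.42), Fgf3 (3.53, SE 0.42), Spry4 (2.29, SE 0.23), Fgf10 (2.01), Fgf17 (1.62), Dusp4 (1.50), Spry2 (1.23) and Etv5 (0.98), as log2 differences. Fgf3, Fgf15 and Spry4 kept the call with each library left out. The other 5 lost it, and 3 members were called in all, without either library of ESC-WT, ESC-ΔZF1 or NPC-ΔZF1. Without replicate 1 or replicate 2 of NPC-WT more members were called, but so were many more of all genes. These fits are therefore not read as a result about the members. For the other 9 members that rose in NPC-ΔZF1, a difference between the cell types was not shown.

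Genes of the same pathway outside the family were taken from lists, and their counts stand beside 7.19% of all genes higher and 10.5% lower in NPC-ΔZF1. Of 25 genes from receptor adaptors to ERK, such as Frs2, Grb2, Sos1 and Braf, 0 were higher in NPC-ΔZF1 and 1 was lower, with a median log2 fold change of 0.02. The gene that fell was Ksr1, a scaffold of the cascade, at -1.11 (SE 0.18, adjusted p = 0.00272), which lies on chromosome 11. Of 19 tested genes of heparan sulphate and co-receptors, 6 were higher and 0 lower, with a median of 0.08. These were Klb, the co-receptor of Fgf15 and Fgf21, at 3.53 (SE 0.32, adjusted p = 0.000173), the FLRT proteins Flrt3 (1.87) and Flrt2 (1.27), the glypicans Gpc6 (1.62) and Gpc3 (0.77), and the sulphatase Sulf1 (1.03). Of 20 other ERK-responsive genes, 5 were higher and 5 lower, with a median of -0.20. Il17rd, a membrane-bound inhibitor of FGF signaling also called Sef, rose by 2.01 (SE 0.11, adjusted p = 9.46e-06) and the ETS factor Etv1 by 2.29 (SE 0.22, adjusted p = 0.000189), along with Epha2 (1.65), Epha4 (1.59) and Ccnd1 (0.68). The immediate early genes Fos (-1.18), Junb (-1.10) and Dusp1 (-0.80), the EGFR inhibitor Errfi1 (-1.07) and Lif (-1.49) were lower. ERK-responsive genes outside the family thus moved both ways, while 1 of the 25 cascade genes was called.

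Markers of other cell types moved in the same comparison, beside the same shares of all genes. All 12 extraembryonic endoderm markers were higher in NPC-ΔZF1, and their summed level was 195 to 227 CPM in NPC-WT and 1887 to 1974 CPM in NPC-ΔZF1. The defining gene Sox17 had 4.38 to 5.92 CPM in NPC-WT and 46.2 to 48.0 in NPC-ΔZF1, and no marker of the list was at 0 in either group. Of 8 surface ectoderm markers, 6 were lower and 1 higher, and their summed level, mostly of Krt8 and Krt18, was 2999 to 4327 CPM in NPC-WT and 1236 to 1296 CPM in NPC-ΔZF1. In E14 NPCs these sums were 537 to 699 and 175 to 220 CPM. Of 8 tested neural progenitor markers 3 were higher and 1 lower, of 6 mesoderm markers 2 and 1, of 5 neuron markers 1 and 1, of 5 formative epiblast markers 1 and 0, and of 8 pluripotency markers 0 and 1. The part of these cells in the levels of the FGF genes was not tested, and in bulk RNA fewer cells of a type cannot be told apart from less RNA per cell.

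Chromosome 11 as a whole was lower in ΔZF1 cells, its genes having a median of -0.46 on the log2 scale in ESCs and of -0.57 in NPCs. Etv4, Fgf11, Fgf18 and Spred2 lie on it. With this median taken into the offsets, Etv4 in NPCs went from 0.53 to 1.10 and Spred2 from 0.15 to 0.72, which was called (adjusted p = 0.00245), while Fgf11 and Fgf18 were at 0.24 and -0.32 and were not called. In ESCs, Spred2 went from -0.47 (adjusted p = 0.0424, short of the fold limit) to -0.02.

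The promoters of members that rose together were inspected for the binding motif of ETS factors, the family of Etv4 and Etv5, and for that of CTCF. RefSeq windows of 300 bases on GRCm38, from 250 before to 50 after a transcript start, were found for 28 of the 38 members, including 10 of the 17 that rose in NPC-ΔZF1. The ETS core CCGGAA, searched on both strands, was present in 3 of the 12 windows of these 10 members, those of Fgf5, Fgfr4 and Spry2, in 5 of all 36 member windows, and in 14.9% of 32851 windows of all genes. A CTCF core motif was present in 0 of the 36 member windows and in 1.18% of all windows. Both are matches of letters in a short window and show no binding. The windows of Fgf5 (chr5:98253934-98254233, plus strand), Fgfr4 (chr13:55152568-55152867, plus strand) and Spry2 (chr14:105896770-105897069, minus strand) are shown 5′ to 3′ in the direction of transcription, since they are the called members with this motif, which is in capitals.
Fgf5 promoter: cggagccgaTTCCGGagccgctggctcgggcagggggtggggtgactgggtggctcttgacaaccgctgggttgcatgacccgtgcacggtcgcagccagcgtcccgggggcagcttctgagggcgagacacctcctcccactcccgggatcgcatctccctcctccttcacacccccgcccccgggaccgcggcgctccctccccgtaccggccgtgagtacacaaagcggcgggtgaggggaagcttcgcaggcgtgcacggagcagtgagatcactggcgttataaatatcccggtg
Fgfr4 promoter: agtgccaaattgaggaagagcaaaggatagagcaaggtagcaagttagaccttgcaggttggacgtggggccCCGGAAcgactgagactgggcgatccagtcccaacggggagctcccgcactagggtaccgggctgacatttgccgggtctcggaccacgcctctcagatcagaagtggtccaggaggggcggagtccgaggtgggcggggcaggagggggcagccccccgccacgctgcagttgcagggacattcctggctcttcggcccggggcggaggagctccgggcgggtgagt
Spry2 promoter: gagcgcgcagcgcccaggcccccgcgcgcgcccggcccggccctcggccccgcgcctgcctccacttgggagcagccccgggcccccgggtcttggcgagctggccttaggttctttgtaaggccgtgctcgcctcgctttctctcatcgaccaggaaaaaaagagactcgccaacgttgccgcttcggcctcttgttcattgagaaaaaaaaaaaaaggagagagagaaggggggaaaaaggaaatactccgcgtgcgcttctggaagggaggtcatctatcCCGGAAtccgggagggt
In Fgf5 the match lies on the opposite strand and begins at base -241 relative to the start, in Fgfr4 at base -178 and in Spry2 at base 34, within the transcript. Dusp6 and Etv5, which rose as well, had windows without this core.

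Fgf3, Fgf4 and Fgf15 are neighbours on the plus strand, with Fgf3 on chromosome 7 from 144838083 to 144844436, Fgf4 from 144847367 to 144865243 and Fgf15 from 144896531 to 144900953 in GENCODE M21 on GRCm38. In NPC-ΔZF1 the outer genes rose by 3.11 and 3.95 while Fgf4 between them had a log2 difference of 0.40. In Grb10 pA NPCs, compared with E14, the outer genes fell by 1.86 and 1.36 on the log2 scale and Fgf4 was at 0.35, again short of the call. These 2 comparisons share no library, and whether Fgf4 differed from its neighbours was not tested. Of the exon bases of Fgf15, 787 overlap the antisense genes Gm26793 and Gm39119, so that some of its reads may be theirs.

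The levels of some feedback genes that rose in NPC-ΔZF1 were set beside those of E14 NPCs, a table that was normalized separately, so that no test was made between them. Spry4 averaged 11.9 CPM in NPC-WT, 60.3 in NPC-ΔZF1 and 99.4 in E14 NPCs. Etv5 averaged 47.5, 101 and 266 CPM in the same order, and Dusp6 44.3, 99.9 and 215 CPM. Not all of the 17 members that rose in NPC-ΔZF1 had this order. Every E14 NPC library lay above both NPC-ΔZF1 libraries in 10 of them, and below both in 4, which were Fgf3, Fgf10, Fgfr3 and Fgfr4. In 15 of the 17 every E14 NPC library lay above both NPC-WT libraries, with Fgfr3 and Fgfr4 the exceptions. These genes were called for being higher in NPC-ΔZF1 than in NPC-WT, so that a low level in NPC-WT is in part built in. The share of all genes separated in these ways was not counted, so that these counts are not read as a result about the members.

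**Figure D4:**
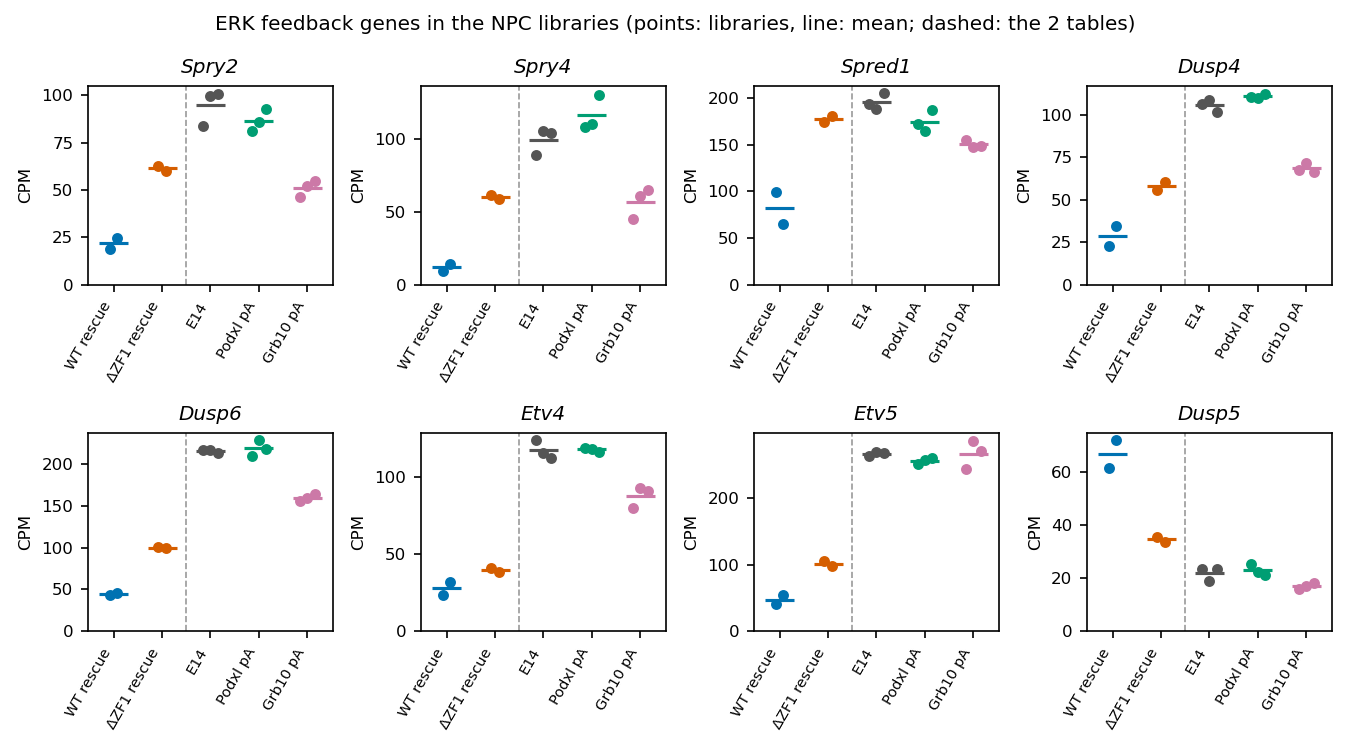
CPM (y axes, from 0) of 8 ERK feedback genes in the NPC libraries of the 5 lines, with a point for each library, a line for the mean and a dashed line between the separately normalized tables. All 8 were called between the NPC rescue lines, so that a difference between those lines is built into the choice. Within the rescue table ΔZF1 lies above WT for each gene but Dusp5, and within the truncation table Grb10 pA lies below E14 for Spry2, Spry4 and Dusp4. With the median of chromosome 8 in the offsets, Dusp4 was at -0.15 on the log2 scale in Grb10 pA NPCs and was not called.

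With truncation of Podxl RNA, none of 26 members was called in ESCs, beside 0.0829% of all genes higher and 0.256% lower, or in NPCs, beside 0.384% and 0.166%. By edgeR, 1 and 3 members had an unadjusted p under 0.05, and DESeq2 called 0 in both. The difference between the cell types was called for 0 members, with 2 under an unadjusted p of 0.05 and 0 by DESeq2, beside 0.0678% and 0.0301% of all genes. The nearest was Fgf8, which had 0, 0.156 and 0 CPM in Podxl pA ESCs and 0.869, 1.19 and 0.387 in E14 ESCs, or 1 count against 12, a ratio of 0.0855 with a 95% counting interval from 0.0020 to 0.578 and an adjusted p of 0.137. In NPCs it had 3.07, 3.19 and 2.82 CPM against 4.19, 5.94 and 5.04 in E14, a log2 difference of -0.78 (SE 0.27, adjusted p = 0.252), with no overlap between the groups. The 11 feedback genes tested differed in NPCs by -0.16 for Spred1 to 0.23 for Spry4 on the log2 scale, with standard errors of 0.07 to 0.27. In the same NPC comparison, 5 of 10 tested extraembryonic endoderm markers were higher.

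In Grb10 pA ESCs, 2 members were lower than in E14 and 1 was higher, beside 4.58% and 4.51% of all genes. Spry4 had 55.4, 42.5 and 48.4 CPM in E14 ESCs and 19.2, 25.8 and 21.9 in Grb10 pA ESCs, a log2 fold change of -1.14 (SE 0.15, adjusted p = 8.14e-06), with every Grb10 pA library below every E14 library. Dusp5 had 14.8, 13.1 and 13.2 against 10.1, 6.19 and 8.5 CPM (log2 fold change -0.69, SE 0.20, adjusted p = 0.0201). Its call was lost without replicate 1 of E14 or replicate 2 or 3 of Grb10 pA. Fgfr3 had 1.52, 2.9 and 3.09 against 6.68, 5.16 and 3.07 CPM, which overlap between the groups (log2 fold change 1.02, SE 0.34, adjusted p = 0.0441), and its call was lost without any of the 3 E14 libraries or without replicate 1 or 2 of Grb10 pA. Of these members, Spry4 alone kept its call in every alternative tried.

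In Grb10 pA NPCs, 7 members were lower than in E14 NPCs and 0 higher, beside 8.64% and 7.91% of all genes. The median log2 fold change was -0.37 over the members and 0.01 over all genes. Fgf3 had 2.58, 3.96 and 3.02 CPM in E14 and 0.897, 0.248 and 1.36 in Grb10 pA NPCs (log2 fold change -1.86, SE 0.48, adjusted p = 0.00436), and its call was lost without replicate 2 of E14 (adjusted p = 0.0608). Fgf15 had 4.51, 4.11 and 4.03 against 1.35, 2.48 and 1.36 CPM (log2 fold change -1.36, SE 0.36, adjusted p = 0.00518). Both ligands are the outer genes of the cluster on chromosome 7. Fgf13 had 9.03, 6.55 and 7.72 against 3.7, 2.23 and 4.09 CPM (log2 fold change -1.12, SE 0.29, adjusted p = 0.00486). Spred3 had 5.8, 10.0 and 13.1 against 2.69, 4.97 and 3.07 CPM (log2 fold change -1.52, SE 0.31, adjusted p = 0.000632). Spry2 had 83.5, 99.5 and 101 against 46.5, 51.9 and 54.5 CPM (log2 fold change -0.90, SE 0.10, adjusted p = 1.06e-07), and Spry4 had 89, 105 and 104 against 45.3, 61.1 and 64.9 CPM (log2 fold change -0.82, SE 0.12, adjusted p = 1.6e-05). In all 6 of these genes every Grb10 pA library lay below every E14 library. Dusp4, the last, had 106, 108 and 102 against 67.7, 71.3 and 66.4 CPM (log2 fold change -0.63, SE 0.10, adjusted p = 5.84e-05), and it lies on chromosome 8, whose median log2 fold change was -0.49 in Grb10 pA ESCs and -0.48 in NPCs. With that median in the offsets, Dusp4 was at -0.15 (adjusted p = 0.326) and no longer called, and Fgfr1, the other tested member of chromosome 8, went from -0.50, just short of the fold limit, to -0.02. Fgf20 lies there too and was not tested.

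**Figure D5:**
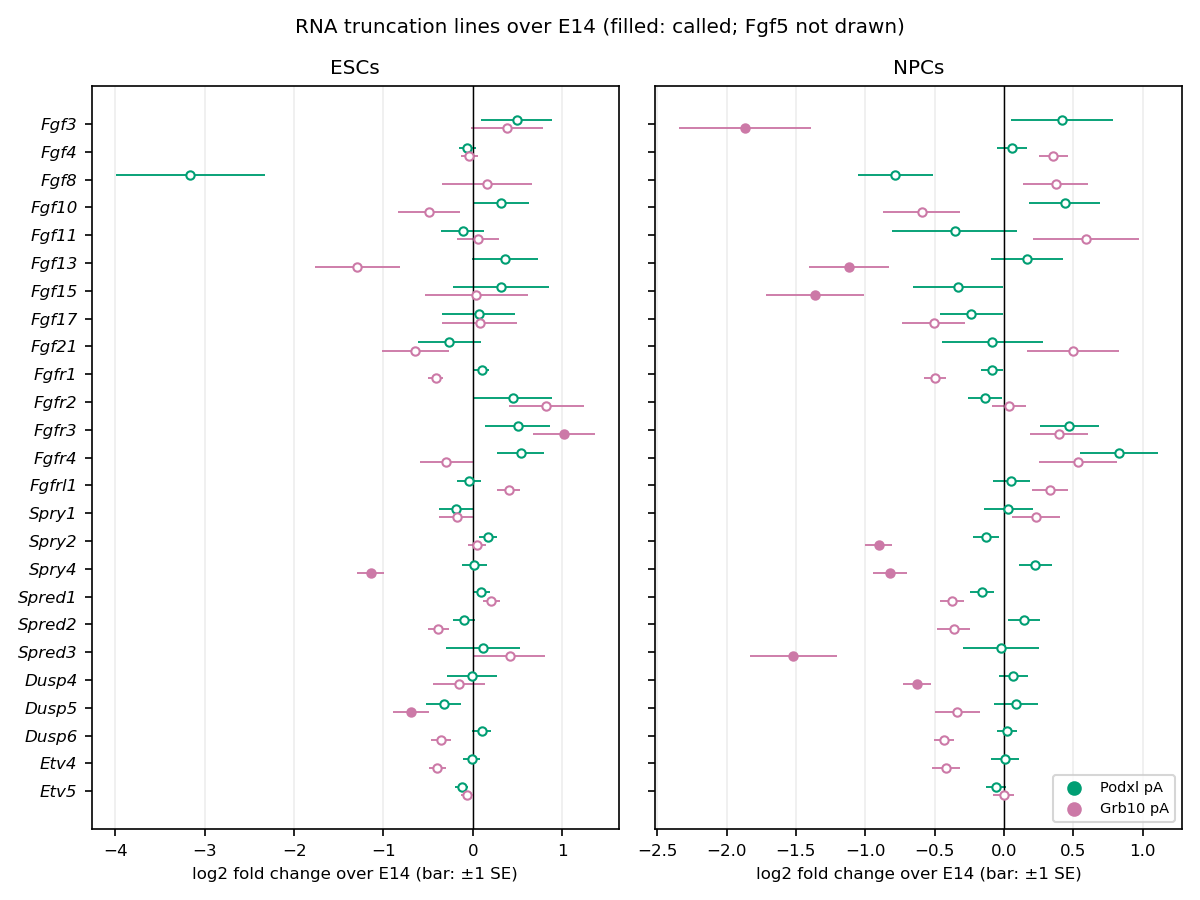
Log2 fold change over E14 (x axes, which differ in range, with bars of 1 SE) of 25 members in Podxl pA (green) and Grb10 pA (pink) cells, as ESCs (left) and NPCs (right), with filled points for called members. No Podxl pA point is filled, and the 7 filled Grb10 pA points in NPCs all lie to the left of 0; Fgf5 is not drawn because its ESC counts were at or near 0.

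Between the cell types, the effect of Grb10 pA was lower in NPCs than in ESCs for 4 members and higher for 0, beside 3.04% and 2.86% of all genes. These were Fgf3 (-2.25, SE 0.63), Spred3 (-1.93, SE 0.51), Spry2 (-0.95, SE 0.14) and Spred1 (-0.58, SE 0.13), as log2 differences. Of these, Spry2 kept its call with each library left out. The count was 2 without replicate 2 of E14 ESCs, replicate 2 of E14 NPCs or replicate 1 of Grb10 pA NPCs. Spry4 was lower in both cell types, and its interaction was 0.32 (SE 0.20, adjusted p = 0.361).

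Of the pathway lists, 25 genes from receptor adaptors to ERK gave 3 higher and 0 lower in Grb10 pA NPCs, namely Frs3 (0.89), Plcg1 (0.51) and Braf (0.50). The 19 tested heparan sulphate and co-receptor genes gave 3 higher, Gpc4 (1.07), Sdc4 (0.76) and Gpc3 (0.54), and 1 lower, the sulphotransferase Hs6st2 (-0.90). The 16 tested other ERK-responsive genes gave 2 higher, Ier3 (0.97) and Phlda1 (0.74), and 4 lower, Epha2 (-1.16), Junb (-1.01), Ier2 (-0.80) and Ccnd1 (-0.58). Among all genes 7.91% were higher and 8.64% lower in this comparison. In the same comparison 4 of 6 tested neural progenitor markers were lower, and their summed level was 183 to 203 CPM in E14 NPCs and 123 to 139 in Grb10 pA NPCs. Of 10 tested extraembryonic endoderm markers 3 were lower, with summed levels of 537 to 699 and 424 to 556 CPM. Of 8 pluripotency markers 3 were higher, Esrrb (0.98), Nanog (0.66) and Tfcp2l1 (0.53), and 1 was lower, Klf4 (-0.72). Of 4 tested mesoderm markers 2 were higher and 1 lower, and of 5 neuron markers 0 and 2. Of 5 formative epiblast markers 1 was higher and 1 lower, and of 7 surface ectoderm markers 1 and 1. The part of these cell types in the lower Sprouty and ligand levels was not tested.

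The remaining members were near or below the limit of detection. Fgf6, Fgf7, Fgf9, Fgf12, Fgf14, Fgf16, Fgf20 and Fgf23 passed the filter in neither table and did not exceed 1.68 CPM in any library. Fgf1, Fgf2, Fgf18 and Fgf22 passed in the rescue lines only. In ΔZF1 cells Fgf2 was lower in NPCs than in ESCs, with a log2 fold change of -2.30 (SE 0.42, adjusted p = 0.00152), and 640 of its exon bases overlap the antisense gene Nudt6. Fgf21 passed in the truncation lines only, with 1.16 to 7.20 CPM over their libraries, where the rescue libraries had at most 0.337 CPM. It was called higher on differentiation in Grb10 pA cells alone, with a log2 fold change of 0.85 (SE 0.35, adjusted p = 0.0464), a call lost when any of 5 of the 6 libraries was left out. Spry3 was not analysed here.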

How the data were processed

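Gene counts were made and deposited by the authors from rRNA-depleted total RNA, with STAR on mm10 and featureCounts. The values are raw counts per gene symbol. A directional kit was used but counting did not use strand, so reads of overlapping antisense genes are shared. The annotation used for counting is not given in the sources used here. Columns of the authors' own comparisons (fold changes and p-values) were not used, nor were 3 columns that match no sample. Of 55291 symbols, 53186 (96.2%) matched 1 gene of GENCODE M21, which gave positions and exon lengths.

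Each of the 2 tables was fitted over all its libraries with edgeR 4.0.16 in R 4.3.3 (TMM, filterByExpr by group, quasi-likelihood test, Benjamini-Hochberg adjustment over all genes tested). Calls needed an adjusted p of 0.05 or less and a log2 fold change of 0.5 or more in size. CPM is the count divided by the TMM-adjusted library size. DESeq2 1.42.0, the tool of the study, was an alternative. Scripts were tested on simulated data. Intervals of count ratios are exact, at 95%, and cover counting error only. Depth is given as counts per library.

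Members and lists were chosen with earlier results of these data known. The rule named all called members, described the 10 with the largest change in full, and added those on chromosomes 11 and 8. The joint fit of both tables was chosen after seeing the data.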

Additional observations from a re-analysis of the deposited data

Results flagged for a closer look

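The effect of ΔZF1 differed between NPCs and ESCs for 8 members by the interaction term of edgeR's quasi-likelihood test. The effect was higher in NPCs, on the log2 scale, for Fgf15 (3.55), Fgf3 (3.53), Spry4 (2.29), Fgf10 (2.01), Fgf17 (1.62), Dusp4 (1.50), Spry2 (1.23) and Etv5 (0.98). Fgf3, Fgf15 and Spry4 kept the call with each library left out in turn, and the other 5 did not.

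The effect of Grb10 pA was lower in NPCs than in ESCs for 4 members by the same test, which were Fgf3 (-2.25), Spred3 (-1.93), Spry2 (-0.95) and Spred1 (-0.58). The calls of Fgf3, Spred3 and Spred1 were each lost without at least 1 single library, and that of Spry2 was not.

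The change from ESC to NPC differed between the WT rescue line and E14 cells for 22 members, in a joint fit chosen after seeing the data. It was lower in the WT rescue line, on the log2 scale, for Fgf15 (-5.74), Fgf1 (-5.61), Fgf5 (-5.56), Fgf17 (-5.21), Spry4 (-3.83), Fgf4 (-3.45), Fgf8 (-3.32), Dusp4 (-2.93), Spry2 (-2.90), Etv5 (-2.65), Fgf3 (-2.56), Dusp6 (-2.30), Etv4 (-1.95), Fgf10 (-1.90), Fgfr2 (-1.62), Spred3 (-1.53), Spred1 (-1.42), Spry1 (-0.90) and Spred2 (-0.86). It was higher for Dusp5 (2.22), Fgf11 (1.34) and Fgfr1 (0.52). The value of Fgf5 depends on the prior count, since E14 ESCs had no count of it, and its call was lost when any of 9 of the 10 libraries compared was left out. The 2 lines differ in the degron, the drugs, the clone, the experiment and possibly the time of collection, which cannot be told apart.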

How the results depend on the processing

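The alternatives were DESeq2, RLE size factors, no filter on low counts, a fit of only the groups compared, a replicate block, each library left out in turn, and the median of chromosome 11 or 8 in the offsets. Over 136 comparisons of a called member, 1493 alternative values were computed, of which 1383 kept their call, 110 lost it and 0 changed direction, and 109 comparisons lost no call under any alternative. The joint fit gave 308 such values, of which 287 kept the call, 21 lost it and 0 changed direction, with 18 to 23 members called. In ESCs, ΔZF1 against WT gave 1 called member without the filter and 2 with only the groups compared, where 0 were called otherwise. Grb10 pA against E14 in ESCs gave 1 with only the groups compared, where 3 were called. The interaction of ΔZF1 gave 3 to 19 and that of Grb10 pA 2 to 5 members over the fits without a library. Where a group was left with 1 library, that library was assumed to vary like the other groups. The causes were not tested. Libraries with the same number did not deviate together, with correlations from -0.33 to 0.19, so the numbers were not read as pairs. With the replicate block, 18 members were called for ΔZF1 in NPCs, 7 for its interaction, where Dusp4 was lost with an adjusted p of 0.0746, 2 for Grb10 pA in ESCs, where Fgfr3 was lost with an adjusted p of 0.0581, and 7 for Grb10 pA in NPCs. With 2 or 3 libraries a group, and under 10 counts for Fgf8 and Fgf15 in each NPC-WT library, small differences of low ligands were not detectable at this depth.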
